A study of Homo sapiens with 12 samples.

Results

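The CYP4 genes encode a family of cytochrome P450 enzymes, and 6 of them were followed here across ZR-75-1 cells with and without RB1: CYP4B1, CYP4X1, CYP4Z1, CYP4F11, CYP4F12 and CYP4V2. They were taken by gene symbol from the 60612 gene rows used, of which 34 carry a CYP4 symbol (12 with the symbol of a protein-coding gene and 22 with that of a pseudogene or antisense transcript). CYP4B1 was chosen by its measured values, since it had been seen to rise under treatment when RB1 was intact and not when it was absent. Those values are therefore given as a description, with no test. The other 5 members were tested in a fit across all genes.

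ZR-75-1 is an oestrogen receptor-positive human breast cancer cell line of luminal type. Cells carried either a non-targeting guide RNA (sgControl) or a CRISPR–Cas9 knockout of RB1, which encodes the retinoblastoma protein Rb, and the study expanded its knockout lines from single sorted cells, so that a difference between genotypes is also a difference between lines. Both genotypes were kept for 5 days in 500 nM abemaciclib, which blocks the Rb kinases CDK4 and CDK6, or in the solvent DMSO, giving 4 groups of 3 replicates. The study describes its RNA-seq replicates as biologically independent, although the labels only number them.

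CYP4 enzymes sit in the membrane of the endoplasmic reticulum, receive electrons from the reductase POR and hydroxylate fatty acids and eicosanoids at or near the end of the chain (omega-hydroxylation). The products can be oxidised further to dicarboxylic acids and shortened in peroxisomes, and in liver and kidney several members are targets of the fatty acid receptor PPARα. In the breast, CYP4Z1 is best known for its expression in the mammary gland and in breast carcinoma. CYP4B1 is known for the activation of furan protoxins and CYP4V2 for its mutation in Bietti crystalline dystrophy, a retinal disease.

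The genes lie in 3 places on GRCh38. CYP4B1 (chr1:46757838-46819413), CYP4X1 (chr1:47023669-47050751) and CYP4Z1 (chr1:47067231-47118318) share a cluster at 1p33, all on the plus strand and within 360.5 kb. CYP4F12 (chr19:15673018-15697174, plus strand) and CYP4F11 (chr19:15912367-15934867, minus strand) belong to the CYP4F cluster at 19p13.12. CYP4V2 (chr4:186191567-186213463, plus strand) stands alone among CYP4 genes on chromosome 4.

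The start-site regions of the 3 members at 1p33, of CYP4V2 and of CYP4F22 are shown side by side. CYP4F22 is a CYP4F gene that is no member and had the same direction of response as CYP4B1. CYP4F3 had that direction too and is left out. The regions come from RefSeq (GRCh38.p14) and run 5′ to 3′ on the plus strand, from 250 bases before the start to 10 bases after it. Capitals mark every match on either strand to 5 short motifs, which are spelled out below the sequences. RefSeq entries matched 5 of the 6 members, CYP4F12 being the exception. For CYP4B1 the RefSeq start lies 41.2 kb inside the first base of the GENCODE gene, which has a further upstream start, and for CYP4X1 the second of the RefSeq entries, at the GENCODE start, is shown.
CYP4B1 (chr1:46798796-46799055): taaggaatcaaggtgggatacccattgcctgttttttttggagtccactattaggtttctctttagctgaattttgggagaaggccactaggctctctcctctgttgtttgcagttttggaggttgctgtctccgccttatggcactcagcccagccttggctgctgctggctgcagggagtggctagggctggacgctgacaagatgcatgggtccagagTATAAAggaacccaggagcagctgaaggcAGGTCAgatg
CYP4X1 (chr1:47023419-47023678): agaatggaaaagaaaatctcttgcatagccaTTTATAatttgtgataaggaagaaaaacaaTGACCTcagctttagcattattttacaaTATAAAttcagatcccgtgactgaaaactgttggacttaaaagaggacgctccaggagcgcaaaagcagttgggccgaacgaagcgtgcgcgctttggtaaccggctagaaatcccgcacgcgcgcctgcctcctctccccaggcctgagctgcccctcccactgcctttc
CYP4Z1 (chr1:47066981-47067240): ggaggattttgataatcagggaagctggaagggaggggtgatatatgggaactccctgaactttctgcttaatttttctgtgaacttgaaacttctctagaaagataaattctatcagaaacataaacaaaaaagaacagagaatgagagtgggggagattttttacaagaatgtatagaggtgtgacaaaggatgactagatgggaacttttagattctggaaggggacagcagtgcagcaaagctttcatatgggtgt
CYP4V2 (chr4:186191317-186191576): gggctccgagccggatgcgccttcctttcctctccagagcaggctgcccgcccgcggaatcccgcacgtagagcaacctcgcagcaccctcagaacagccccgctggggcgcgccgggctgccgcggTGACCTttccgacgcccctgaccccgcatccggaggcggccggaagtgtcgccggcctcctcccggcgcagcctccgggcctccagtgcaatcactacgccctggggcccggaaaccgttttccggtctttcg
CYP4F22 (chr19:15508275-15508534): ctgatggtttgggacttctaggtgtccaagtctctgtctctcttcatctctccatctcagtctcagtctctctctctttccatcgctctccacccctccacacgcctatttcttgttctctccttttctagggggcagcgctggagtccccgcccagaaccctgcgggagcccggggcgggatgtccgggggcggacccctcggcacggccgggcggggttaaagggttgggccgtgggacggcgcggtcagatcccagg

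The CYP4B1 region held TATAAA from base -29, and AGGTCA, the half-site bound by many nuclear receptors, from base 1. CYP4X1 held TATAAA on both strands, farther upstream, and the reverse of AGGTCA. CYP4V2 held the reverse of AGGTCA, and CYP4Z1 and CYP4F22 had none of the searched letters in these windows. Over all 35116 RefSeq windows of the same length, with both strands read, 10.9% held TATAAA (the TATA box) and 12.5% held AGGTCA. The CCAAT box letters, CCAAT, were in 32.7% of windows. The CHR element of cell cycle genes, searched as TTTGAA, was in 13.8%. An E2F-like element, searched as TTCCCGC, was in 5.72%. A match here is a description of the letters.

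Total counts ran from 39907318 to 81636393 per sample, and no pair of replicates agreed within sampling noise (the lowest chi-square was 3.49 per gene). RB1 had 2090 to 7543 counts in sgControl samples and 29 to 63 in knockout samples, as labelled. All 10 luminal markers averaged 100 normalized counts or more, as the cell line should show. Markers of other cell types were mostly low: 5 of 6 basal, 5 of 6 fibroblast, all 5 leukocyte, all 3 endothelial, all 3 adipocyte and all 4 hepatocyte markers were under that level, with CD3E and LEP at 0. The summed hepatocyte markers were 9.70 to 17.7 normalized counts in sgControl DMSO samples, 135 to 197 in sgControl abemaciclib samples and 4.41 to 14.1 in knockout samples, mostly through APOA1, while ALB stayed at a mean of 4.3 or less. The summed basal markers were 600.3 to 788 in sgControl DMSO, 153 to 177 in sgControl abemaciclib and 1033 to 1162 in knockout samples. The endothelial sum, nearly all of it VWF, was 21.4 to 38.4 in DMSO and 86.3 to 102 in abemaciclib samples over both genotypes. The fibroblast sum was the largest of the non-luminal sums, at 2122 to 2418 in sgControl DMSO and 2889 to 3102 in sgControl abemaciclib. In knockout cells it was 1906 to 2072 in DMSO and 2595 to 2706 in abemaciclib. The part of these markers in the results below was not tested. In bulk RNA, fewer cells expressing a gene and less RNA per cell cannot be told apart.

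CYP4B1 is a fatty acid hydroxylase. Its normalized counts (counts divided by a size factor for depth) were 252.3, 328.7 and 271.5 in sgControl DMSO samples and 27274.6, 25596.1 and 24031.6 in sgControl abemaciclib samples. In knockout cells they were 169.4, 112.4 and 142.1 in DMSO and 106.5, 143.2 and 134.2 in abemaciclib. The sgControl abemaciclib samples stood far above all others, and the knockout samples in DMSO and abemaciclib overlapped. The order of the group means was sgControl abemaciclib, sgControl DMSO, knockout DMSO and knockout abemaciclib, of which only the last neighbours did not separate.

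In sgControl cells the mean of CYP4B1 went from 284 ± 39.8 to 25634 ± 1622 normalized counts (SD, n = 3), a 90.2-fold difference, with a fitted log2 difference of 6.50 ± 0.11 (SE). In knockout cells the means were 141 ± 28.5 and 128 ± 19.1, with a fitted log2 difference of -0.13 ± 0.15. Between genotypes, sgControl DMSO samples held 2.01 times as much CYP4B1 as knockout DMSO samples, and sgControl abemaciclib samples held 200.4 times as much as knockout abemaciclib samples. These values describe the gene that the choice was made on.

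**Figure D1:**
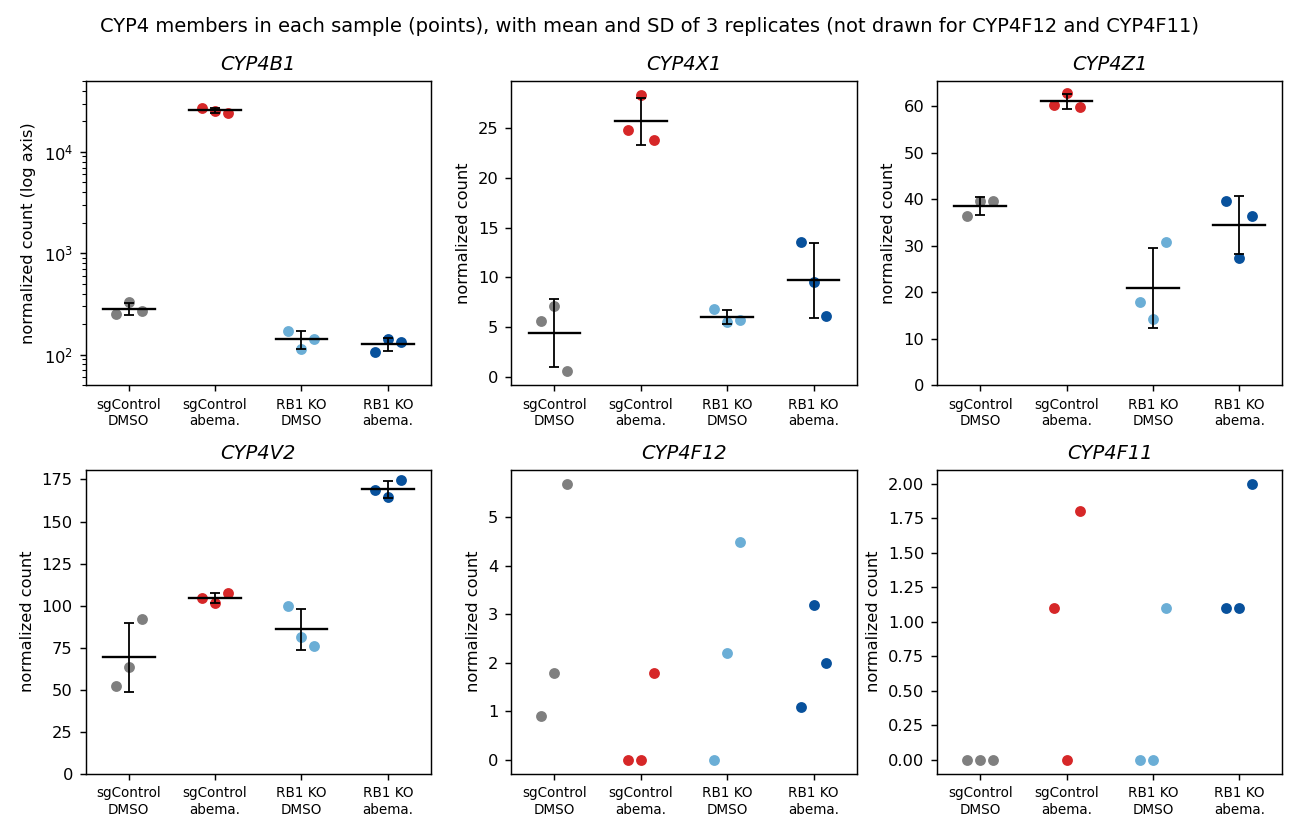
Normalized counts of the 6 members in each of the 12 samples, by group on the horizontal axis (points), with the mean (line) and SD (bar) of 3 replicates for CYP4B1, CYP4X1, CYP4Z1 and CYP4V2. The CYP4B1 axis is logarithmic, and its 3 sgControl abemaciclib samples sit at 24031.6 or above while no other sample passes 328.7. CYP4X1 and CYP4Z1 were highest in sgControl abemaciclib, CYP4V2 in knockout abemaciclib, and CYP4F12 and CYP4F11 held a few counts at most.

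The share of CYP4 counts that came from CYP4B1 moved with it. Over all rows with a CYP4 symbol, CYP4B1 made up 40.8% to 49.9% of counts in sgControl DMSO samples and 98.2% to 98.4% in sgControl abemaciclib samples. In knockout cells its share was 23.5% to 30.8% in DMSO and 21.6% to 27.6% in abemaciclib. Counts of all CYP4 rows together were 9.33 to 12.9 CPM in sgControl DMSO, 417 to 448 in sgControl abemaciclib, and 8.45 to 10.1 in the knockout groups. CYP4 transcripts were thus scarce in 3 of the groups.

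Per kilobase of annotated exon, CYP4B1 stood at a level of 82.2 ± 11.5 normalized counts in sgControl DMSO and 7411 ± 469 in sgControl abemaciclib (SD, n = 3). Ranked by level per kilobase among 17496 genes, it went from place 9205 to place 300. In knockout cells it ranked 10615 in DMSO and 10940 in abemaciclib. In sgControl abemaciclib samples its level per kilobase was 273 ± 18.1 times that of CYP4Z1, the next member, and 418 times with the length of the longest transcript in place of all annotated exons.

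The other members were low on the same scale. CYP4Z1 stood at 17.1, 27.1, 9.29 and 15.3 normalized counts per kilobase in sgControl DMSO, sgControl abemaciclib, knockout DMSO and knockout abemaciclib. In the same order, CYP4V2 stood at 7.08, 10.7, 8.79 and 17.3, and CYP4X1 at 1.81, 10.5, 2.46 and 3.97. CYP4V2 was thus the highest of the 6 members after CYP4B1 in knockout abemaciclib cells, by a narrow margin over CYP4Z1, whose samples ranged from 12.2 to 17.6 against 16.8 to 17.9 for CYP4V2.

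CYP4F12 and CYP4F11, which hydroxylate long-chain fatty acids and eicosanoids elsewhere in the body, were near the limit of detection. CYP4F11 had at most 2 counts in any sample, under a floor of 3 counts, so no fold is given. CYP4F12 had 12 counts over the 3 sgControl DMSO samples, 9 of them in replicate 3, then 2 in sgControl abemaciclib and 6 in each knockout group. The CYP4F12 ratio of abemaciclib to DMSO in sgControl cells was 0.198 (exact 95% interval from 0.0215 to 0.890, counting error only), but adjusted p was 0.24, the DMSO samples differed among themselves, and no difference beyond the spread between replicates was detectable.

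Abemaciclib against DMSO in sgControl cells asked how the members respond when Rb can be activated. CYP4X1, CYP4Z1 and CYP4V2 rose, which is 3 of the 5 members besides CYP4B1 (4 tested by DESeq2), against 49.8% of the 22723 genes tested called in either direction and 25.0% called higher. CYP4X1, an orphan P450 known from brain and airway, had normalized counts of 5.6, 7.1 and 0.6 in DMSO and 24.8, 28.3 and 23.8 in abemaciclib. The groups did not overlap, although the DMSO samples held only 6, 8 and 1 reads. Its fitted log2 fold change was 2.62 ± 0.60 (SE), with adjusted p = 4.5e-05, and the call was kept under every alternative run. The runs with edgeR and with low-count genes removed do not bear on it, since CYP4X1 passed those filters only through the sgControl abemaciclib samples.

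CYP4Z1, the mammary fatty acid hydroxylase, had normalized counts of 36.3, 39.7 and 39.7 in DMSO and 60.3, 62.9 and 59.9 in abemaciclib. The groups were tight and did not overlap, and the rise was 0.66 ± 0.27 on the log2 scale with adjusted p = 0.030. The call was lost when any 1 of the 6 sgControl samples was left out: adjusted p was 0.099, 0.071 and 0.082 without DMSO replicate 1, 2 or 3, and 0.073, 0.10 and 0.071 without abemaciclib replicate 1, 2 or 3. CYP4V2 had 52.1, 63.5 and 92.0 in DMSO and 104.5, 101.8 and 107.5 in abemaciclib. Its rise of 0.58 ± 0.20 had adjusted p = 0.011, and was not called without DMSO replicate 1 (0.41, adjusted p = 0.090) or replicate 2 (0.51, adjusted p = 0.058).

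In RB1-knockout cells the same comparison called 1 of these 5 members (3 tested), CYP4V2, against 30.0% of 18546 genes tested in either direction and 14.9% higher. CYP4V2 had 99.7, 81.5 and 76.2 normalized counts in DMSO and 168.7, 164.3 and 174.5 in abemaciclib. The groups were well apart, and the rise of 0.99 ± 0.20 (adjusted p = 1.5e-05) was kept under every alternative. CYP4Z1 had 17.8, 14.3 and 30.7 in DMSO and 39.6, 27.4 and 36.3 in abemaciclib, so that its groups overlapped. Its log2 difference of 0.71 ± 0.33 had adjusted p = 0.089, which became 1.11 with adjusted p = 0.022 without DMSO replicate 3, the high sample. CYP4X1 had 6.8, 5.5 and 5.7 in DMSO and 13.6, 9.5 and 6.1 in abemaciclib, with a log2 difference of 0.69 ± 0.65 (adjusted p = 0.47).

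**Figure D2:**
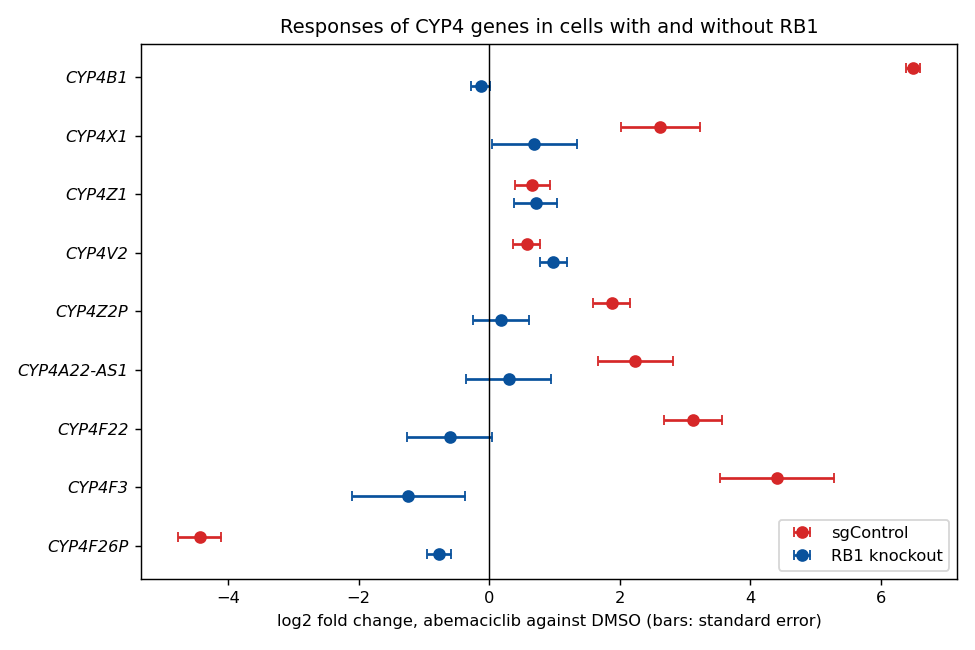
Fitted log2 fold change of abemaciclib against DMSO (horizontal axis, bars are standard errors) in sgControl and RB1-knockout cells for 9 CYP4 rows, 3 replicates per group. CYP4B1 lies at 6.50 in sgControl and -0.13 in knockout cells, whereas the points of CYP4Z1 and CYP4V2 are within 0.41 of each other between genotypes.

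Whether a response differed between genotypes was tested by the interaction of drug and genotype, where a negative value means a smaller response without RB1. DESeq2 called 0 of these 5 members (4 tested), against 41.4% of 20932 genes tested, while 1 passed an unadjusted p of 0.05. That gene was CYP4X1, at -1.93 ± 0.89 with adjusted p = 0.067. Without sgControl DMSO replicate 2 it was -2.51 with adjusted p = 0.029. After low-count genes were removed, adjusted p was 0.043 with edgeR (1 of 3 members tested passed an unadjusted p of 0.05) and 0.038 with DESeq2, but CYP4X1 passed that filter only through the sgControl abemaciclib samples, so these calls do not bear on the difference. CYP4Z1 differed by 0.05 ± 0.43 (adjusted p = 0.95) and CYP4V2 by 0.41 ± 0.29 (adjusted p = 0.27), and errors of this size leave room for a difference in either direction. For CYP4B1 the fitted difference of responses was -6.62 ± 0.18, given as a description.

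Between genotypes in DMSO, 1 of these 5 members (3 tested) was called, against 37.4% of 16755 genes tested, and 18.2% of genes were called lower. CYP4Z1 was lower in knockout cells by 0.88 ± 0.32 on the log2 scale (adjusted p = 0.018), with 14.3 to 30.7 normalized counts against 36.3 to 39.7 in sgControl cells. The call was lost without sgControl DMSO replicate 2 (adjusted p = 0.055) or 3 (0.065) and without knockout DMSO replicate 1 (0.089) or 2 (0.17). CYP4V2 differed by 0.28 ± 0.21 (adjusted p = 0.31), and without sgControl DMSO replicate 3 by 0.56 (adjusted p = 0.041). CYP4X1 differed by 0.52 ± 0.69 (adjusted p = 0.60), or by -0.09 without sgControl DMSO replicate 3.

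In abemaciclib, 3 of these 5 members (4 tested) differed between genotypes, against 55.9% of 21529 genes tested. CYP4X1 was lower in knockout cells (-1.41 ± 0.55, adjusted p = 0.021) and so was CYP4Z1 (-0.83 ± 0.28, adjusted p = 0.0071), whereas CYP4V2 was higher (0.69 ± 0.20, adjusted p = 9.5e-04). The samples of each gene did not overlap between genotypes. The CYP4X1 call was lost without any 1 of the sgControl abemaciclib samples (adjusted p of 0.062, 0.095 and 0.057 without replicate 1, 2 or 3) or without knockout abemaciclib replicate 2 (0.069) or 3 (0.11). The CYP4Z1 call was lost without knockout abemaciclib replicate 2 (-0.68, adjusted p = 0.064). This comparison shares its samples with the responses above.

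Among the 6 protein-coding CYP4 genes that are no members, CYP4F22 and CYP4F3 were detected beyond a few counts. Both passed 10 counts only in sgControl abemaciclib samples, so their values and calls are a description. CYP4F22 makes the omega-hydroxylated very long-chain fatty acids of skin ceramides. It had 6.5, 6.2 and 6.3 normalized counts in sgControl DMSO and 69.0, 47.8 and 49.3 in sgControl abemaciclib, against 4.1, 7.7 and 5.7 and then 3.4, 4.2 and 4.0 in knockout cells. It rose by 3.13 ± 0.45 in sgControl cells (adjusted p = 1.3e-11), differed by -0.61 ± 0.65 in knockout cells (adjusted p = 0.55) and had an interaction of -3.73 ± 0.79 (adjusted p = 1.2e-05).

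CYP4F3, the leukotriene B4 omega-hydroxylase, had 1, 1 and 3 counts in sgControl DMSO and 14, 22 and 54 in sgControl abemaciclib. Abemaciclib replicate 3 was the highest, and the groups did not overlap. The ratio of depth-scaled counts was 21.4 (exact 95% interval from 8.84 to 67.5, counting error only), and the interaction was -5.65 ± 1.22 (adjusted p = 1.9e-05). In knockout cells 15 counts in DMSO and 7 in abemaciclib gave a ratio of 0.416 (0.144 to 1.08). CYP4A11, CYP4A22, CYP4F2 and CYP4F8 had at most 2 counts in any sample.

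Of the pseudogene and antisense rows, 3 reached a mean normalized count of 10. CYP4Z2P, a transcribed copy of CYP4Z1 on the minus strand at 1p33, had 35.4, 22.0 and 32.1 normalized counts in sgControl DMSO and 115.3, 109.8 and 104.8 in sgControl abemaciclib, then 9.6, 6.6 and 18.2 and 10.2, 16.8 and 12.1 in knockout cells. It rose by 1.88 ± 0.28 in sgControl cells (adjusted p = 2.0e-10), and its interaction was -1.69 ± 0.52 (adjusted p = 0.0033). The interaction was not called without knockout DMSO replicate 3 (-1.16, adjusted p = 0.11). CYP4Z1 and CYP4Z2P shared 363 of their distinct 100-base windows, 16.9% of those of CYP4Z1 and 24.2% of those of CYP4Z2P, so a part of their reads could have been split between them.

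CYP4A22-AS1, which runs opposite to CYP4Z1 and CYP4A22, rose from a mean of 4.59 ± 3.37 to 22.8 ± 3.19 in sgControl cells (2.24 ± 0.58, adjusted p = 3.1e-04). Its knockout means were 6.29 ± 1.24 and 7.76 ± 2.42. The interaction of -1.94 ± 0.87 had adjusted p = 0.059, or 0.028 without sgControl DMSO replicate 3. CYP4A22-AS1 reached the mean of 10 only through the sgControl abemaciclib samples, so its values and these tests are a description. Reads of overlapping opposite-strand genes can be told apart only if the counting used strand, which is not given in the sources used here.

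Of these 3 rows, CYP4F26P on chromosome 9 went the other way. It fell from 168 ± 32.8 to 7.81 ± 2.64 normalized counts in sgControl cells (-4.43 ± 0.33, adjusted p = 4.8e-40) and from 215 ± 7.99 to 127 ± 5.77 in knockout cells (-0.77 ± 0.18, adjusted p = 1.4e-04). The interaction was 3.67 ± 0.37 (adjusted p = 2.1e-21). This row lies inside ANKRD18B on the same strand and shared 1041 of its 4660 windows with it. ANKRD18B itself differed by -3.03 ± 0.16 in sgControl cells and 0.10 ± 0.12 in knockout cells. The pseudogene CYP4F23P, next to CYP4F22, had 1 count in sgControl DMSO and 67 in sgControl abemaciclib, a ratio of 79.7 (13.8 to 3193), and 3 counts over the 6 knockout samples. The pseudogene CYP4F32P fell at similarly low counts, from 19 in sgControl DMSO to 1 in sgControl abemaciclib, a ratio of 0.0626 (0.00151 to 0.394). In knockout cells CYP4F32P had 23 counts in DMSO and 15 in abemaciclib.

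At 1p33, rising CYP4 rows stood among genes with mixed responses. Of 18 other annotated genes within 250 kb of the cluster, 10 averaged 10 normalized counts or more, and in sgControl cells 3 of them rose and 3 fell, with a median log2 change of -0.09. Over all genes tested, 25.0% were called higher and 24.8% lower in sgControl cells, and 14.9% and 15.1% in knockout cells. These shares are the background for the neighbours at all 3 loci. MOB3C, of the MOB kinase activator family, lies upstream of CYP4B1 and went from 77.0 ± 9.03 to 270 ± 29.5 normalized counts in sgControl cells (1.81 ± 0.17) with an interaction of -1.92 ± 0.26 (adjusted p = 2.8e-12). STIL, needed for centriole duplication, fell by 1.76 on the log2 scale, and DMBX1, a homeobox gene, fell by 1.46. EFCAB14, the annotated gene next upstream of CYP4B1 among those at this level, changed by 0.34 (adjusted p = 4.3e-04), or 0.20 (adjusted p = 0.15) with total-count scaling. In knockout cells 1 of the 10 rose and 1 fell.

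At 19p13.12, 25 other genes lay in the same distance and 9 passed that level, of which 4 rose and 3 fell in sgControl cells. PGLYRP2, an amidase that cleaves bacterial peptidoglycan, lies on the minus strand, with its annotated start 9.57 kb from that of CYP4F22 on the plus strand. The normalized counts of PGLYRP2 were 14.0, 20.3 and 11.3 in sgControl DMSO and 2104.7, 1576.3 and 1647.3 in sgControl abemaciclib, a log2 change of 6.90 ± 0.24. In knockout cells it had 0, 0 and 3 counts in DMSO and 6, 5 and 11 in abemaciclib. Its interaction of -4.19 ± 0.93 (adjusted p = 3.1e-05) was -1.79 (adjusted p = 0.37) without knockout DMSO replicate 3, which left that group at 0. PGLYRP2 passed the level for naming only through the sgControl abemaciclib samples, so its values are a description. WIZ, a zinc-finger chromatin protein, rose by 0.88 and AKAP8 fell by 0.51 in sgControl cells.

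Around CYP4V2, 4 of 10 other genes passed that level, and 3 of the 4 fell in sgControl cells while none was called in knockout cells. TLR3, a receptor for double-stranded RNA, changed by -0.73 ± 0.14 in sgControl cells and 0.19 ± 0.12 in knockout cells (interaction 0.92, adjusted p = 3.4e-06). FAM149A changed by -1.66 ± 0.23 and 0.33 ± 0.19, with an interaction of 1.99 (adjusted p = 4.5e-10). CYP4V2 differed from these neighbours in its direction in sgControl cells, but 4 genes are too few to set against the shares over all genes.

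**Figure D3:**
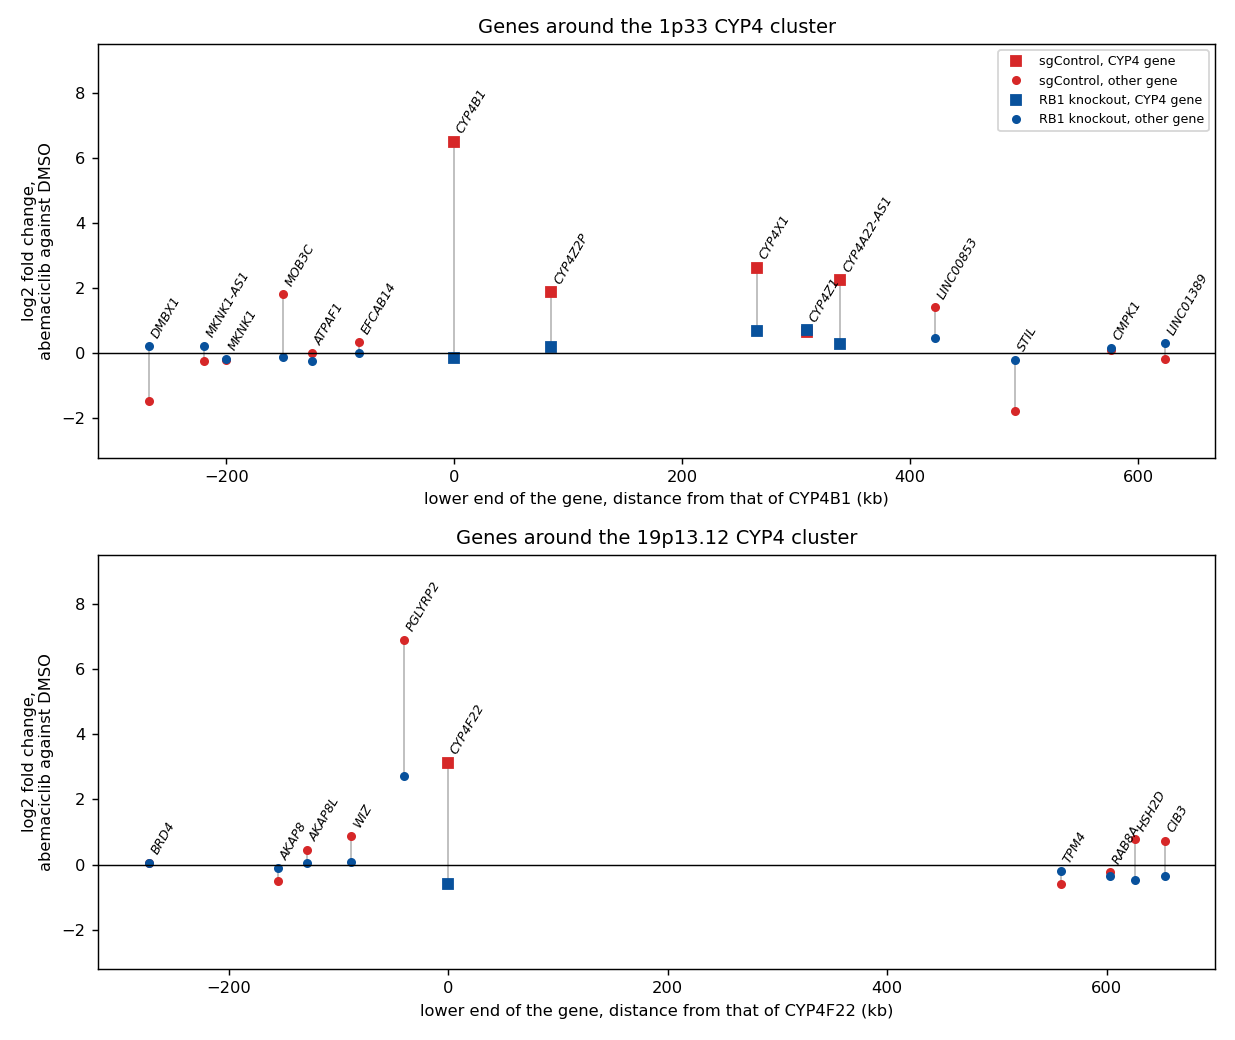
Log2 fold change of abemaciclib against DMSO (vertical axis) of genes that averaged 10 normalized counts or more, by distance in kb from CYP4B1 (upper plot) and from CYP4F22 (lower plot), in sgControl and RB1-knockout cells. Squares are CYP4 genes, circles other genes and lines join the values of one gene. CYP4B1 at 6.50 and PGLYRP2 at 6.90 stand above all other genes drawn.

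The proteins that CYP4 enzymes work with and the steps that follow omega-hydroxylation were taken as a list of 25 genes, of which 21 were tested. In sgControl cells 9 rose and 6 fell, with a median log2 change of 0.10 (-0.02 with total-count scaling) beside 0.01 over all genes tested. Of all genes tested, the sgControl response called 25.0% higher and 24.8% lower, the knockout response 14.9% and 15.1%, and the interaction 21.1% and 20.3%. These shares are the background for every list count given here. Total-count scaling lowered the sgControl medians of the lists that follow to 0.39 for PPAR targets, 0.25 for receptors and luminal factors, 0.31 for glucocorticoid and progestin targets, -0.31 for eicosanoid genes and 0.16 for other P450 genes. In knockout cells 4 rose and 5 fell, and for the interaction 5 were called higher and 10 lower, with a median of -0.22. POR, the electron donor, had means of 3808, 3886, 3943 and 3463 normalized counts in the 4 groups and a sgControl change of 0.03 ± 0.08 (adjusted p = 0.80). CYB5A, the cytochrome b5 that can assist P450 reactions, rose by 1.07 ± 0.08 in sgControl cells (adjusted p = 2.0e-41).

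Single genes of this list moved in both directions. ACAA1, the peroxisomal thiolase, rose by 1.51 ± 0.06 and had an interaction of -1.40 (adjusted p = 2.1e-57). EHHADH, the bifunctional enzyme of the pathway, rose by 1.43 ± 0.07 with an interaction of -1.44 (adjusted p = 3.5e-40). ABCD3, a peroxisomal transporter, rose by 0.56. SLC27A2, a very long-chain acyl-CoA synthetase, went from 1418 to 179 normalized counts (interaction 2.94, adjusted p = 8.7e-102). ALDH3B1, an aldehyde dehydrogenase, rose by 2.10 in knockout cells and had an interaction of 1.83 (adjusted p = 7.0e-21). ALDH3A2, the fatty aldehyde dehydrogenase, fell by 0.35 in sgControl and by 0.50 in knockout cells.

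**Figure D4:**
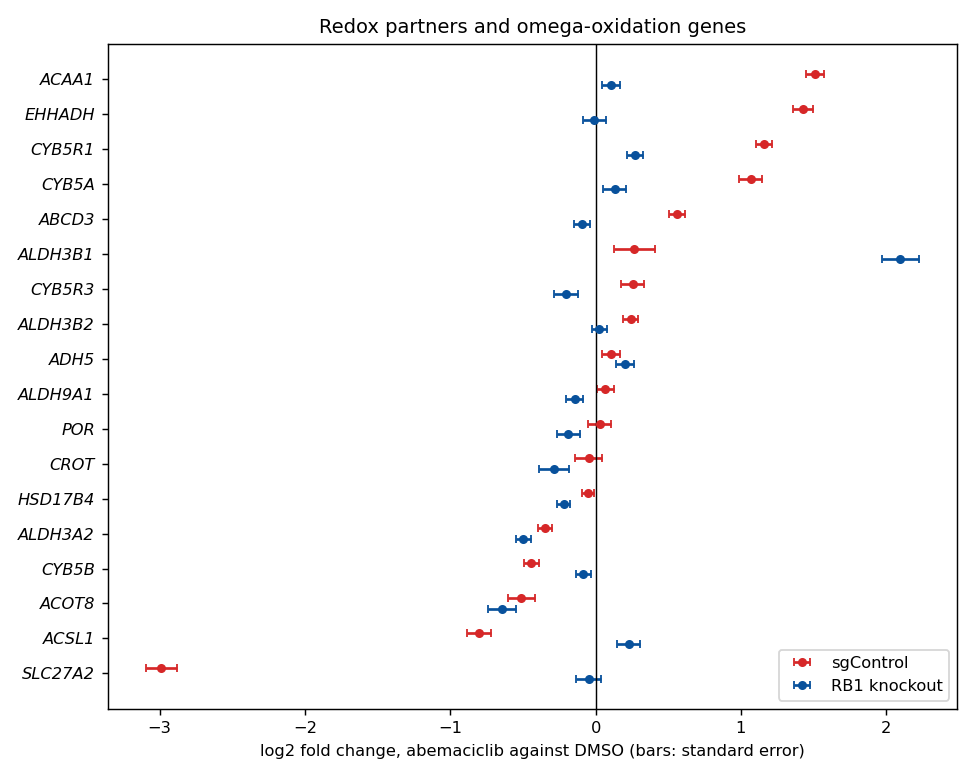
Fitted log2 fold change of abemaciclib against DMSO (horizontal axis, bars are standard errors) in sgControl and RB1-knockout cells for 18 redox partner and omega-oxidation genes that averaged 100 normalized counts or more. ACAA1 (1.51) and EHHADH (1.43) have the highest sgControl values drawn, SLC27A2 the lowest (-2.99), and ALDH3B1 the highest knockout value (2.10).

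PPAR target genes numbered 23, with 18 tested. In sgControl cells 9 rose and 5 fell (median 0.51), in knockout cells 4 rose and 4 fell (median -0.01), and 5 had a higher and 10 a lower interaction. HADHB, of mitochondrial beta-oxidation, rose by 0.95 and TXNIP by 1.17 (interaction -1.10). The lipid droplet protein PLIN2 fell by 2.68 (interaction 2.62, adjusted p = 1.5e-117), and CPT1A, which carries fatty acids towards mitochondria, fell by 1.29 (interaction 1.12, adjusted p = 1.7e-38). The list moved in both directions.

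Of 18 nuclear receptor and luminal factor genes, all tested in sgControl cells, 10 rose and 1 fell (median 0.38), beside 2 higher and 3 lower of 15 tested in knockout cells. The gene that fell was PPARA, the receptor itself, from 797 to 313 normalized counts (-1.35 ± 0.14), with an interaction of 1.49 (adjusted p = 2.3e-14). ESR1, the oestrogen receptor, changed by 0.59 in sgControl and -0.39 in knockout cells (interaction -0.98, adjusted p = 2.6e-11), and AHR by 0.83 and 0.15 (interaction -0.68, adjusted p = 4.2e-08). PGR, the progesterone receptor, changed by 0.30 and 1.06 (interaction 0.76, adjusted p = 1.6e-06).

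Of 14 glucocorticoid and progestin target genes, 13 were tested. In sgControl cells 8 rose and 3 fell (median 0.45), and in knockout cells 7 rose and 1 fell (median 0.25). MT2A, a metallothionein, fell by 3.87 in sgControl cells (interaction 3.42, adjusted p = 1.7e-102). HSD11B2, which inactivates cortisol, rose by 1.40 (interaction -1.14, adjusted p = 1.5e-33). TSC22D3 had an interaction of -0.90 (adjusted p = 9.3e-16) and CEBPD of 0.83 (adjusted p = 2.5e-07). DUSP1, a phosphatase, rose in both genotypes, by 3.26 and 2.52.

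Of 33 eicosanoid enzymes and receptors, the makers and readers of CYP4 substrates, 27 were tested in sgControl cells, where 8 rose and 7 fell (median -0.19). In knockout cells 3 rose and 5 fell of 24 tested (median -0.18). PTGES, a prostaglandin E2 synthase, rose by 2.06 (interaction -2.25, adjusted p = 7.5e-62), and PLA2G4F, a phospholipase that releases fatty acids from membranes, by 1.16 (interaction -1.60, adjusted p = 4.9e-26). HPGD, which degrades prostaglandins, fell by 1.89 (interaction 1.78, adjusted p = 8.1e-19). LTB4R, a receptor for leukotriene B4, fell by 1.31 in sgControl cells and rose by 0.36 in knockout cells (interaction 1.67, adjusted p = 1.9e-19).

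Of the 44 other cytochrome P450 genes, 35 had a count in any sample and 8 averaged 100 normalized counts or more. Of 24 tested in sgControl cells 9 rose and 5 fell (median 0.29), and of 19 tested in knockout cells 3 rose and 2 fell. CYP2S1 fell by 3.18 in sgControl cells, from 128 to 14 normalized counts (interaction 2.86, adjusted p = 6.1e-17). CYP1B1, the most abundant, changed by 0.40 and -0.22 (interaction -0.62, adjusted p = 3.0e-18). CYP2J2, an arachidonic acid epoxygenase, had an interaction of -0.44 (adjusted p = 4.0e-04), and CYP2U1 of -0.53 (adjusted p = 0.0011), or -0.39 (adjusted p = 0.058) with total-count scaling.

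The genes whose pattern over the 12 samples was most like that of CYP4B1 were sought among 11884 genes that averaged 100 normalized counts or more, by the root mean square difference of centred log2 values. The 5 nearest were BPIFB1 (0.55), PDZK1 (0.57), A2M (0.68), MUC2 (0.69) and CAMP (0.86), against a spread of 3.16 in CYP4B1 itself. BPIFB1, a secreted protein of mucosal surfaces, had group means of 352, 19322, 213 and 82.6 normalized counts, and PDZK1, a scaffold protein, 1174, 59863, 246 and 532. MUC2, a gel-forming mucin, had 20.5, 830, 5.80 and 6.32. A2M, MUC2 and CAMP reached the mean of 100 only through the sgControl abemaciclib samples, so the filter itself let in genes of this pattern. The nearest to CYP4X1 were CLIC3, CRYBG2 and MTND2P28 (0.50 each), to CYP4Z1 BMT2 (0.25), NREP (0.27) and APH1B (0.27), and to CYP4V2 PCDH11X (0.16), RALGAPA2 (0.18) and H2BC6 (0.19). PCDH11X had group means of 319, 459, 456 and 790, in the same order of groups as CYP4V2. These are likenesses over 12 samples that fall into 4 groups, with no test.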

How the data were processed

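RNA-seq of 12 samples was analysed from 1 table of raw read counts per gene. Per the labels and the study's methods, the authors aligned reads to hg38 with STAR 2.7.5b and made the deposited counts with featureCounts 2.0.1 and an earlier GENCODE release than the one used here, without pooling or normalization. The labels name a directional whole-transcript kit and the general methods a 3′ kit. If the latter held, levels per kilobase would not apply. Strand and multi-mapping settings are not given in the sources used here.

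Rows without a gene name (44, 0% of counts) were removed. DESeq2 1.42.0 in R 4.3.3 was fitted to all 12 samples with a term for group, median-of-ratios size factors, two-sided Wald tests, no shrinkage and Benjamini–Hochberg adjustment over the genes left by independent filtering. An adjusted p under 0.05 was a call. edgeR 4.0.16 (quasi-likelihood) was an alternative. The other alternatives were scaling, filters, the groups fitted, a replicate block and leaving out each sample. The tests were tested on simulated data. Groups and replicate numbers came from the labels. Same-numbered samples deviated together (correlations of 0.15, 0.26 and 0.11) between genotypes in abemaciclib, but not in every pair of the other comparisons. Positions and exon lengths are from GENCODE 44, so levels per kilobase divide counts by lengths of a later release. Coverage of the counting intervals is for counting error only.

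The members and gene lists were chosen with earlier results of these data known. Named were the members, other CYP4 rows averaging 10 normalized counts or more or a coding symbol, RB1, genes within 250 kb of the CYP4 genes at that level, the nearest genes by pattern (5 for CYP4B1, 3 for other members called in a response) and up to 4 genes per list with the largest called interaction and a mean of at least 100. CYP4F23P, CYP4F32P and ANKRD18B, and the list genes POR, CYB5A, ABCD3, ALDH3A2, HADHB and DUSP1, were named after their values were seen. Some genes that these rules name are not reported here.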

Additional observations from a re-analysis of the deposited data

Results flagged for a closer look

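For 4 CYP4 rows the response to abemaciclib differed between sgControl and RB1-knockout cells by the interaction test of DESeq2 (adjusted p under 0.05 over all genes tested, 3 samples per group). The 23 genes given from the gene lists were named because their interaction was called. Their difference thus holds by choice, and their values are a description. No member was among the called CYP4 rows, with no test given for CYP4B1. Of the 4 rows, CYP4F22 and CYP4F3 passed 10 counts only in sgControl abemaciclib samples, so their calls are a description. Genes near the CYP4 clusters, and genes named after their values were seen, are not counted here. The 4 called CYP4 rows come from 22 CYP4 rows with a count in any sample, CYP4B1 included and not all tested. A share of these 22 rows cannot be set beside the share over genes tested. Over all genes, 41.4% of the 20932 tested were called, so these calls are not read as a trait of the family. The interaction is given on the log2 scale as the response in knockout cells minus that in sgControl cells.

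Among CYP4 rows it was -1.69 for CYP4Z2P, -3.73 for CYP4F22, -5.65 for CYP4F3 and 3.67 for CYP4F26P. Among redox partners and omega-oxidation genes it was 2.94 for SLC27A2, 1.83 for ALDH3B1, -1.44 for EHHADH and -1.40 for ACAA1. Among PPAR target genes it was 2.62 for PLIN2, 1.12 for CPT1A and -1.10 for TXNIP. Among receptors it was 1.49 for PPARA, -0.98 for ESR1, 0.76 for PGR and -0.68 for AHR. Among glucocorticoid and progestin targets it was 3.42 for MT2A, -1.14 for HSD11B2, -0.90 for TSC22D3 and 0.83 for CEBPD. Among eicosanoid genes it was -2.25 for PTGES, 1.78 for HPGD, 1.67 for LTB4R and -1.60 for PLA2G4F. Among other P450 genes it was 2.86 for CYP2S1, -0.62 for CYP1B1, -0.53 for CYP2U1 and -0.44 for CYP2J2.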

How the results depend on the processing

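No called fold change of a named gene changed sign under any alternative run. Uncalled ones did: leaving out 1 sample gave -0.27 to 0.01 for CYP4B1 in knockout cells, -0.09 to 1.10 for CYP4X1 between genotypes in DMSO and -0.17 to 0.45 for the CYP4Z1 interaction. The count of called members in the sgControl response (3) was 1 with total-count scaling, which lost CYP4Z1 (adjusted p = 0.10) and CYP4V2 (0.095). CYP4V2 was also lost with only the compared groups fitted (0.052). For the interaction (0) it was 1 with edgeR and 1 with low-count genes removed, in both runs CYP4X1, which passed those filters only through the sgControl abemaciclib samples. Between genotypes in DMSO (1) the count was 0 with only the compared groups fitted. Leaving out 1 sample gave 1 to 3 called members for the sgControl response, 1 to 2 in knockout cells, 0 to 1 for the interaction, 0 to 1 between genotypes in DMSO and 1 to 3 between genotypes in abemaciclib. The ratio of CYP4B1 to CYP4Z1 per kilobase was 418 with the longest transcript. Total-count scaling moved the median gene by -0.13 (log2) in the sgControl response and 0.14 in the interaction, and the share of calls that were higher from 50.2% to 40.1% and from 51.0% to 63.8%.

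With the replicate block, 11059 genes were called in sgControl cells (11305 without), 5381 in knockout cells (5571), 8515 for the interaction (8668), 6031 between genotypes in DMSO (6259) and 11761 in abemaciclib (12039). In the last, where every same-numbered pair was correlated (0.15, 0.26 and 0.11), no call of a member changed. The block lost CYP4Z1 in the sgControl response (adjusted p = 0.057), where not every pair was correlated (0.25, 0.22 and -0.08). The causes of these shifts were not tested. Low counts limit CYP4X1, CYP4F11, CYP4F12 and CYP4F3.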
